A study of Triticum aestivum with 6 samples.

Results

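Homoeologous group 6 of bread wheat (Triticum aestivum) comprises chromosomes 6A, 6B and 6D, and its leaf transcripts were described here for the long (L) and short (S) arms apart. Members were all genes whose ID places them on 6A, 6B or 6D and whose mean over both growth temperatures was at least 1 FPKM (fragment numbers corrected for transcript length and library size), after summing a gene's transcripts. Of 11653 gene IDs on group 6, 4033 met this rule, out of 42972 such genes in the whole table. There were 242 on 6AL, 263 on 6AS, 974 on 6BL, 618 on 6BS, 1222 on 6DL and 714 on 6DS. Leaves came from plants labelled 4 weeks and grown at 4 °C, with 2 weeks of cold named in the treatment, and from plants labelled 2 weeks and grown at 23 °C, with 3 libraries each. The temperatures were held in separate chambers, under a 16-hour photoperiod and light of 120 μmol per square metre and second in both. All plants carried the label of an 18:3 lipid phenotype. Neither cultivar nor stock is given in the labels. Temperature, chamber and labelled weeks cannot be told apart in this design.

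As background, bread wheat carries the A, B and D subgenomes, so that most genes exist as homoeologous copies, one on each of the corresponding chromosomes. The group 6 short arms are known for the alpha-gliadin loci, which encode seed storage proteins, and for a NAC transcription factor gene that governs leaf senescence and grain protein content. The short arm of 6B also carries a nucleolus organiser. The gene IDs state the chromosome arm and nothing else: 0 of them matched the RefSeq gene table, so no gene has a name, role, sequence or coordinate here, and the leaf label could not be set against marker genes.

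The authors deposited a single value per transcript and condition. No difference below therefore has a replicate check, and values carry no error, no n and no p. Depth is unknown, since the table holds no counts. Copies on 6A, 6B and 6D can be near identical, and how reads were divided among them was not tested, so values of single arms are not fully separate measurements. As in any bulk sample, fewer cells of a type and less RNA per cell cannot be told apart. Just inside the 1 FPKM rule the lowest means were 1.0003 FPKM on 6A, 1.002 on 6B and 1.007 on 6D, and the highest means just outside it were 0.994, 0.998 and 0.997 FPKM. Levels were therefore compared over all gene IDs of an arm, with or without expression, and set against the same arms of other chromosomes in that subgenome. These are 6 arms for A and for D, and 5 for B, because 3B is not split in the IDs.

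Most genes of 6A were listed at 0 or below 0.1 FPKM, on both arms. A listed 0 can also stand for an estimate that failed, so it does not show that a gene was silent. On 6AL, 44.5% of 2175 gene IDs were listed at 0 in both conditions and 24.2% lay above 0 and under 0.1 FPKM, against 24.9% and 9.89% on the pooled A long arms of other chromosomes. On 6AS these shares were 44.2% and 22.5% of 1863 gene IDs, against 28.2% and 9.94% on the other A short arms. The class from 0.1 to under 1 FPKM was the exception, with 20.2% on 6AL and 19.2% on 6AS, against 18.9% and 17.5% on the other long and short A arms. Above it every class was thin. From 1 to under 5 FPKM there were 7.31% of IDs on 6AL and 8.37% on 6AS, against 23.8% and 22.7% on the other arms. At 100 FPKM and more there were 2 genes on 6AL, against 23 to 38 on the other A long arms. There were 8 on 6AS, against 8 to 36 on the other A short arms. As a share of gene IDs these were 0.092% on 6AL, against 0.897% to 1.23%, and 0.429% on 6AS, against 0.476% to 1.58%, so both arms were below the others.

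**Figure D1:**
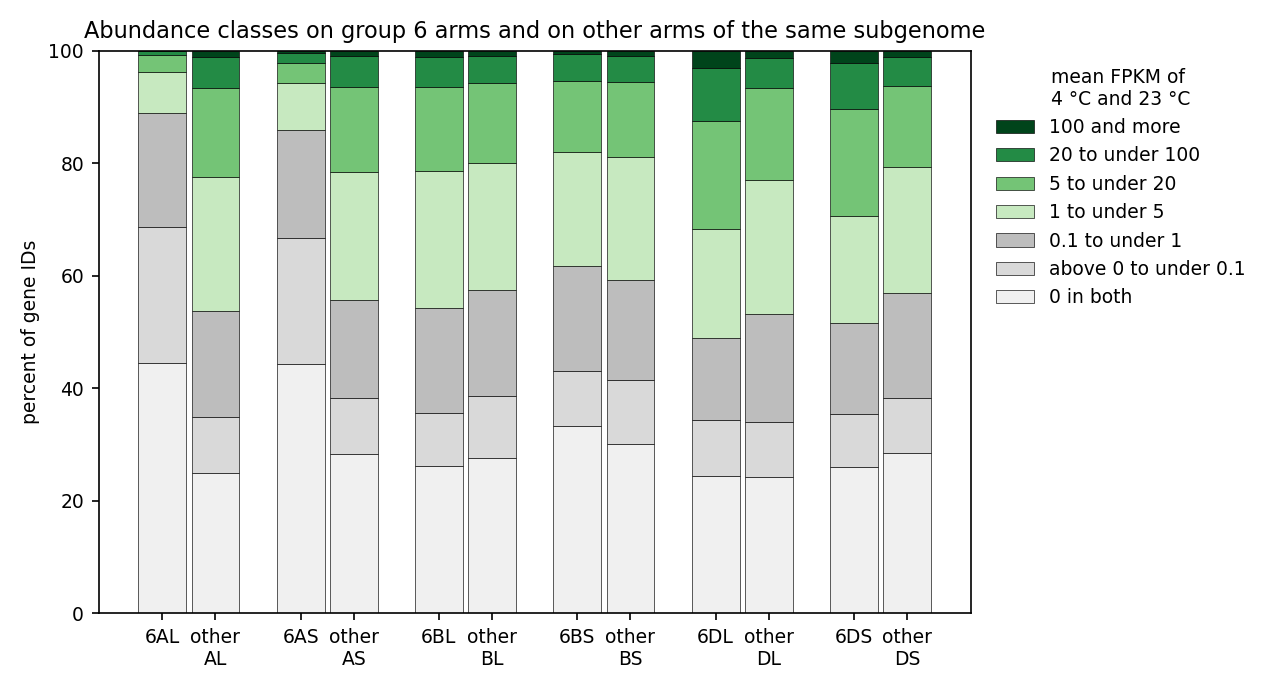
Percent of all gene IDs (vertical axis) in 7 classes of mean FPKM, for each group 6 arm and, to its right, for the same arms of the other chromosomes of its subgenome, pooled. The pale classes under 1 FPKM fill 88.9% of 6AL and 85.9% of 6AS, whereas the darkest class, 100 FPKM and more, is 3.13% of 6DL and 2.17% of 6DS.

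The D chromosome of the group differed in the upper classes and hardly in the lowest. On 6DL 24.4% of 2393 gene IDs were listed at 0 in both conditions, against 24.2% on the other D long arms, and on 6DS 25.9% of 1476, against 28.4%. Genes of 20 to under 100 FPKM made up 9.28% of 6DL and 8.13% of 6DS, against 5.43% and 5.09%. Genes at 100 FPKM and more made up 3.13% of 6DL, against 0.876% to 1.39% on single other D long arms, and 2.17% of 6DS, against 0.633% to 1.47%. Both arms of 6D were thus above every other D arm of their kind in this class. The classes from 0.1 to under 1 and from 1 to under 5 FPKM held smaller shares on 6D than on the other D arms, at 14.7% and 19.4% on 6DL against 19.3% and 23.8%.

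Chromosome 6B resembled the other B chromosomes in most classes. The share of IDs at 1 FPKM or more was 45.7% on 6BL, within the 38.1% to 47.4% of the other B long arms, and 38.3% on 6BS, within 35.3% to 47.5%. At 100 FPKM and more 6BL had 1.03%, within 0.725% to 1.07%, but 6BS had 0.620%, below the 0.777% to 1.30% of the other B short arms.

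The shortfall of 6A depended on where in the distribution it was read, and was smallest among the most abundant genes. Each percentile of FPKM over all IDs of an arm was divided by the median of that percentile over the corresponding arms of the same subgenome. This relative level of 6AL was 0.011 at the 50th percentile, 0.040 at the 75th, 0.085 at the 90th, 0.129 at the 95th and 0.173 at the 99th. On 6AS it was 0.015, 0.066, 0.173, 0.227 and 0.475 at the same percentiles. The long arm was lower than the short arm at each of the 5 percentiles. Over genes with 1 transcript alone the order at the 90th percentile turned round, with a relative level of 0.093 on 6AL and 0.059 on 6AS.

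Levels on 6D were higher by a similar factor over most of the distribution. The relative level of 6DL was 1.56, 1.801, 1.89, 2.27 and 2.29 at the 50th, 75th, 90th, 95th and 99th percentile, and that of 6DS was 1.56, 1.84, 1.75, 1.74 and 1.65. At the 75th to the 95th percentile the other D arms of the same kind reached at most 1.25 for long and 1.18 for short arms. At the 50th percentile another long arm reached 1.61, above 6DL. Over genes with 1 transcript alone the relative level at the 90th percentile was lower, 1.58 on 6DL and 1.16 on 6DS, while 6BL had 1.27 and 6BS 1.23, so that 6DS was then not above 6B. Over all genes the relative level of 6BL stayed between 0.965 and 1.21 over the 5 percentiles, and that of 6BS between 0.827 and 0.958. The 0.827 of 6BS, at the 99th percentile, was below the other B short arms, the lowest of which had 0.972. At the 95th percentile 6BL had 1.087, just above the highest other B long arm at 1.083.

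**Figure D2:**
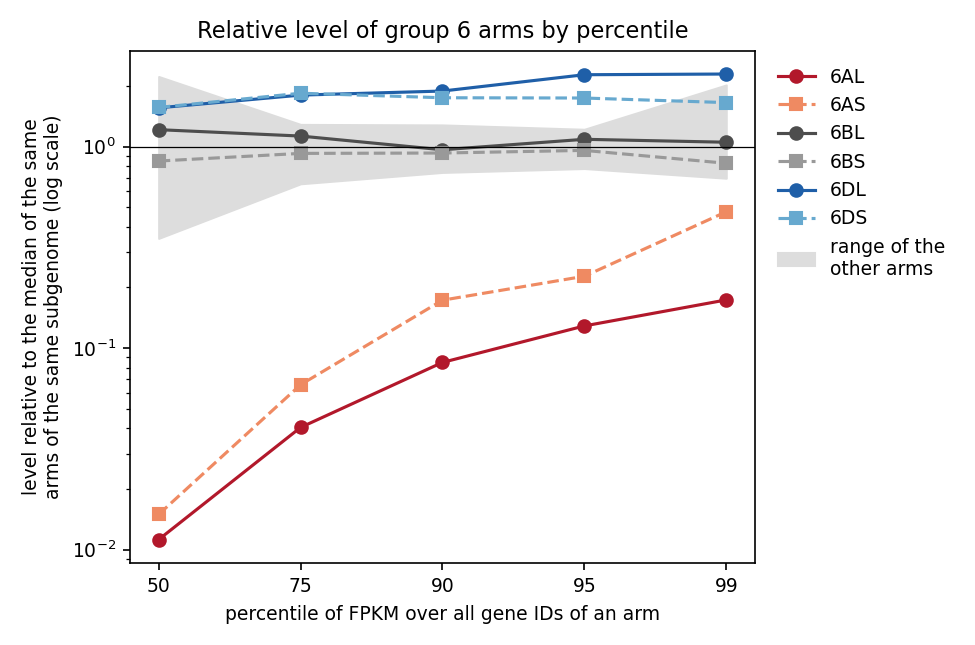
Level of each group 6 arm relative to the median of the corresponding arms of the same subgenome (log scale), at 5 percentiles of mean FPKM over all gene IDs; the grey band spans the other arms, each relative to its own median. 6AL and 6AS climb from 0.011 and 0.015 at the 50th percentile to 0.173 and 0.475 at the 99th and stay below the band, and 6DL and 6DS lie above it from the 75th to the 95th.

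Both conditions showed the same order of the arms. At 4 °C the 90th percentile was 1.31 FPKM on 6AL, 2.07 on 6AS, 10.7 on 6BS, 13.0 on 6BL, 19.7 on 6DS and 26.4 on 6DL. At 23 °C it was 1.03, 1.86, 9.05, 10.3, 19.3 and 23.3 FPKM in that order of arms. The relative level at 4 °C and at 23 °C was 0.089 and 0.085 on 6AL, 0.156 and 0.164 on 6AS, 1.84 and 1.96 on 6DL, and 1.57 and 1.82 on 6DS.

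Within the group, 6D took 65.7% of the summed FPKM at 4 °C and 66.0% at 23 °C, 6B took 26.0% and 26.1%, and 6A took 8.31% and 7.96%. In the other 6 groups the D chromosome took 26.6% to 39.6% at 4 °C and 24.3% to 38.8% at 23 °C, and the A chromosome 30.8% to 38.5% and 29.6% to 39.8%. The imbalance was larger on the long arms, where 6D took 69.8% at 4 °C and 69.5% at 23 °C and 6A 5.07% and 4.78%. On the short arms 6D took 58.1% and 59.4%, and 6A 14.3% and 13.99%. Summed over the 3 chromosomes, the group had 7.88 FPKM per gene ID at 4 °C and 7.38 at 23 °C, and the other groups had 7.09 to 11.5 and 5.71 to 10.1 FPKM.

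The uneven sums of 6A and 6D did not rest on the most abundant genes alone. The 10 most abundant genes took 26.7% of the 6D sum, against 14.9% to 36.9% on the other D chromosomes. The summed mean FPKM per gene ID, divided by the median over the subgenome's other chromosomes, was 1.71 on 6D with all genes and 1.77 without each chromosome's 10 most abundant. On 6A it was 0.187 and 0.177. On 6B it was 0.733 with all genes and 0.865 without the 10.

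Transcripts with no gene ID were not used in the choice of members. They come from the same libraries, so they are no separate check of the levels above. Whether their count follows the read level of an arm was not tested. The transcript numbers of the table run in 41 unbroken runs of gene-bearing transcripts, a run for each arm, and 36721 of the 57882 transcripts with no gene ID lie inside one of them. They were given to an arm by this number alone. Inside the 6AL run 44 of 7940 transcripts, or 0.554%, had no gene ID, and inside the 6AS run 114 of 7024, or 1.62%. On the 35 arms outside group 6 the share was 6.81% to 13.4%, with a median of 8.92%. It was 11.8% on 6BL, 13.3% on 6BS, 8.35% on 6DL and 11.3% on 6DS, all inside that range. Between the 6AL and 6AS runs lay 86 further transcripts with no gene ID and between the 6AS and 6BL runs 133, against 231 to 1139 between other successive runs.

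**Figure D3:**
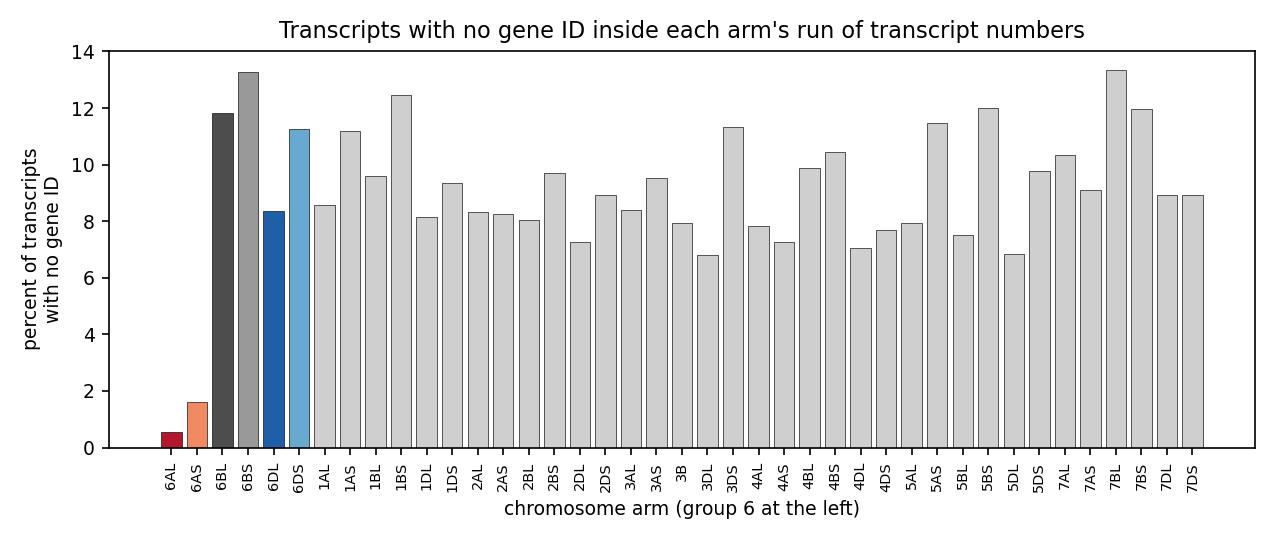
Percent of transcripts that have no gene ID (vertical axis) inside the run of transcript numbers of each chromosome arm, with the group 6 arms at the left in colour and the other 35 arms in grey. The bars of 6AL (0.554%) and 6AS (1.62%) are far below the lowest grey bar, 6.81%.

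The few such transcripts inside the 6A runs were low in their sum but not in their median. Their median was 0.317 FPKM at 4 °C and 0.476 at 23 °C on 6AL and 0.497 and 0.696 on 6AS, against 0.208 to 0.365 and 0.292 to 0.530 on arms outside group 6. On the other A arms such transcripts summed to 523.0 to 2557 FPKM at 4 °C and 604.6 to 2427 at 23 °C. Inside the 6AL run they summed to 38.4 and 65.2 FPKM, and inside the 6AS run to 234.0 and 307.5. Inside the 6DL run they summed to 3411 FPKM at 4 °C, where the other D arms had 386.1 to 3192 FPKM, and to 4916 FPKM at 23 °C, where those arms had 779.8 to 2419. Inside the 6DS run it was 1212 and 1386 FPKM, within those ranges.

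The transcripts listed per gene ID were also counted. Gene IDs had 3.63 listed transcripts on average on 6AL, just under the 3.71 to 4.20 of the other A long arms, and 3.71 on 6AS, within 2.98 to 4.23. Genes under 1 FPKM had 3.52 on 6AL and 3.43 on 6AS, against 2.33 to 2.73 and 2.08 to 2.52 on the other arms. Such genes made up 88.9% of IDs on 6AL and 85.9% on 6AS, more than on the other A arms, so the sets compared are not alike. On 6D such genes had 2.12 transcripts on either arm. Expressed genes had 4.50 on 6AL, below the 4.85 to 5.79 elsewhere, and 5.40 on 6AS, within 4.37 to 6.19.

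The 505 expressed genes of 6A were 12.5% of its 4038 IDs and carried 95.4% of its FPKM at 4 °C and 95.5% at 23 °C. Their median was 3.29 FPKM (quartiles 1.78 and 8.11), against 4.81 FPKM (2.29 and 11.3) for the 12777 expressed genes of the other A chromosomes, and the most abundant stood at 893.0 FPKM. The arms differed here too, with a median of 2.72 FPKM on 6AL and 3.94 on 6AS. Genes of 20 FPKM or more made up 7.44% of the expressed genes on 6AL and 16.0% on 6AS, against 14.4% on the other A chromosomes. In all, 431 of the 505 genes reached 1 FPKM in both conditions, 54 at 4 °C alone and 20 at 23 °C alone. These were 85.3%, 10.7% and 3.96%, against 88.7%, 5.74% and 5.60% on the other A chromosomes.

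Whether expressed genes of 6A were bunched in the table more than on other chromosomes depended on the scale. The next gene by transcript number was also expressed for 71 of the 505, or 14.1%, which is 1.55 percentage points above the share of expressed genes on 6A. On the 18 chromosomes outside group 6 this excess was 0.828 to 4.15 points, with a median of 1.65. As a ratio of the same shares it was 1.12 on 6A and 1.02 to 1.09 on those chromosomes. The 6A ratio rests on 71 genes, where those chromosomes had 821 to 1210. The 6A share of expressed genes was 12.5%, against 38.0% to 50.5% there, so the ratios are not alike in scale. Transcript numbers give an order, not positions, so distances along the chromosome are unknown.

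The 10 genes of 6A with a mean of 100 FPKM or more took 35.1% of its FPKM at 4 °C and 44.6% at 23 °C, and 5 were higher and 5 lower at 4 °C. Traes_6AL_B393E6BCC, the most abundant, had 679.1 FPKM at 4 °C, against 1107 FPKM at 23 °C, or 22.5% and 41.2% of all FPKM on 6AL. Traes_6AS_61B7C2002, the most abundant on 6AS, had 465.6 FPKM at 4 °C, against 572.9 FPKM at 23 °C. Both were thus lower at 4 °C, by less than 2-fold. Behind them, a further 6AS gene had 363.7 FPKM at 4 °C, against 472.9 FPKM at 23 °C, and the next 260.8 FPKM, against 389.7 FPKM. The remaining 6 genes ranged from 53.7 to 244.2 FPKM at 4 °C and from 1.92 to 149.1 FPKM at 23 °C, and 5 of them were higher at 4 °C.

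**Figure D4:**
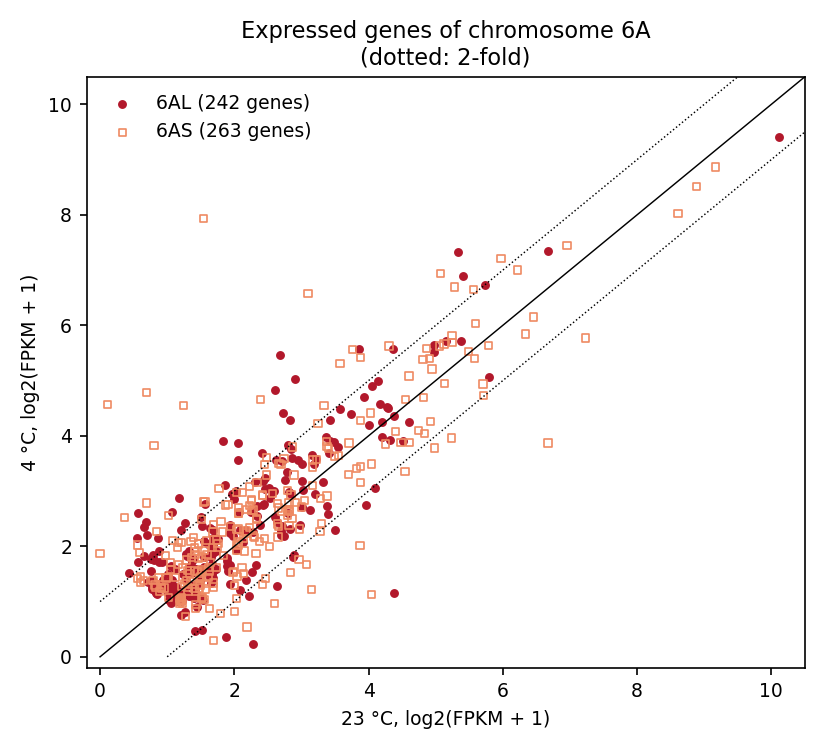
Each point is an expressed gene of 6AL (242, filled circles) or 6AS (263, open squares), with log2(FPKM + 1) at 23 °C on the horizontal and at 4 °C on the vertical axis; the solid line marks equal values and the dotted lines a 2-fold difference. Most points lie between the dotted lines, with 63 on or above the upper line and 30 on or below the lower one.

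The leading genes of 6B were near those of 6A in level, and those of 6D stood higher. On 6BL Traes_6BL_273879F2E had 846.3 FPKM at 4 °C, against 725.8 FPKM at 23 °C, and on 6BS Traes_6BS_EF219893A had 535.2 and 615.0 FPKM. On 6DL Traes_6DL_DE5D1D2FD had 3013 FPKM at 4 °C, against 5414 FPKM at 23 °C, which ranked 12 by mean FPKM among all genes of the table. On 6DS Traes_6DS_8D580A93D had 1805 FPKM at 4 °C, against 2533 FPKM at 23 °C and ranked 28. The leading genes of 6AL and 6AS ranked 101 and 186, and those of 6BL and 6BS 115 and 166. All of these genes but the one on 6BL were lower at 4 °C.

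The contrast of the growth temperatures, 4 °C and 23 °C, addressed how leaf transcript levels differ in the cold. It was read as log2(FPKM + 1) at 4 °C minus that at 23 °C, a scale that understates the change of low genes. In group 6, 488 of 4033 genes had at least 2-fold more at 4 °C than at 23 °C and 293 at least 2-fold less, or 12.1% and 7.27%, close to the 12.4% and 6.62% of all genes tested. By chromosome, 12.5% were higher and 5.94% lower on 6A, 11.5% and 5.28% on 6B, and 12.5% and 9.25% on 6D.

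Lower genes were most frequent on 6DS, where 85 of 714 genes were lower at 4 °C by at least 2-fold and 70 were higher. The 11.9% lower on 6DS compare with 3.70% to 8.04% on the 35 arms outside group 6 and with 7.69% on 6DL, where 172 genes were higher and 94 lower. The 9.80% higher on 6DS lay within the 8.51% to 15.0% of those arms. At 4-fold, 19 genes of 6DS were higher and 19 lower, or 2.66% each, against 3.27% and 1.38% of all genes. The lower share at 4-fold was within the 0.383% to 2.74% of the arms outside the group. On 6AL 34 of 242 genes were higher and 11 lower, and these 14.0% and 4.55% lay within the ranges of the arms outside the group. The median change on 6AL was 0.27, against 0.09 over all genes and -0.002 to 0.17 on those arms. The other medians were 0.13 on 6AS, 0.12 on 6BL, 0.03 on 6BS, 0.05 on 6DL and -0.04 on 6DS.

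**Figure D5:**
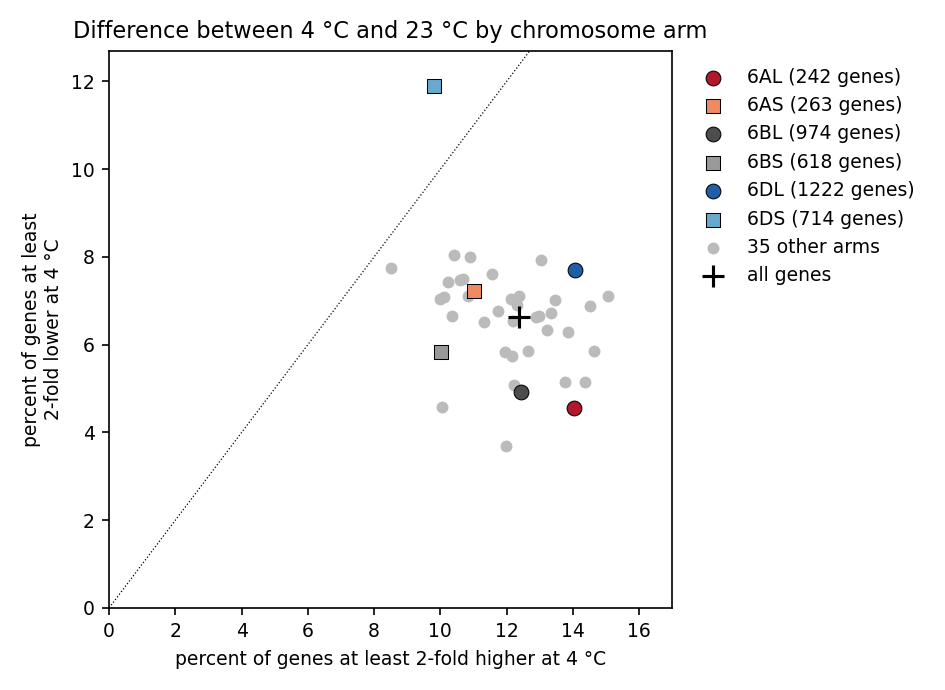
Percent of expressed genes at least 2-fold higher at 4 °C (horizontal axis) and at least 2-fold lower (vertical axis) for each chromosome arm, with group 6 arms in colour, the 35 other arms in grey and all genes as a cross; the dotted line marks equal shares. 6DS, at 9.80% higher and 11.9% lower, is the only point above the dotted line.

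The medians and most of these counts changed with the scaling of the columns, though on every arm the counts stayed within 1.5 times their unscaled values. Median-of-ratios scaling shifted the 4 °C column against the 23 °C column by 0.11 downwards (log2 of FPKM) and brought the median change of all genes to 0.0006. The medians of the arms moved down with it, to 0.19 on 6AL, 0.04 on 6AS, 0.03 on 6BL, -0.056 on 6BS, -0.049 on 6DL and -0.13 on 6DS. Before and after scaling, 6AL, 6AS and 6BL were above the median of all genes, and 6BS, 6DL and 6DS below it. Such scaling divides each column by a constant, so that order could hardly change. Counts of higher and lower genes were then 28 and 11 on 6AL, 26 and 21 on 6AS, 108 and 57 on 6BL, 51 and 41 on 6BS, 158 and 112 on 6DL, and 60 and 102 on 6DS, with 10.9% higher and 7.83% lower among all genes. With quantile normalization, which equalises the distributions of the columns, they were 28 and 12, 22 and 25, 99 and 67, 45 and 48, 143 and 133, and 56 and 108. Lower genes then outnumbered higher ones on 6AS, 6BS and 6DS. Over all genes this normalization gave 9.85% higher and 8.80% lower, against 7.84% and 15.1% on 6DS.

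Because higher genes, and to a lesser degree lower ones, were more frequent among abundant genes, the arms were read within classes of mean FPKM. The log2(FPKM + 1) scale itself shrinks changes most in the lowest class. Each class was therefore read between sets of arms and not against the other classes. On 6DS the share at least 2-fold lower was 11.7% of 281 genes from 1 to under 5 FPKM, 11.0% of 281 from 5 to under 20 FPKM and 13.8% of 152 at 20 FPKM or more. On the other D short arms it was 6.15%, 5.86% and 9.26% in these classes, and among all genes tested 5.94%, 6.84% and 8.54%. The share on 6DS was thus above theirs in each of the 3 classes. The share at least 2-fold higher on 6DS was 6.76%, 8.54% and 17.8%, against 8.16%, 13.4% and 22.7%, and 8.31%, 13.8% and 23.5% among all genes tested.

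On 6AL the median change was 0.16 over 159 genes from 1 to under 5 FPKM, 0.41 over 65 genes from 5 to under 20 FPKM and 0.66 over 18 genes at 20 FPKM or more. On the other A long arms it was 0.01, 0.15 and 0.37. The share at least 2-fold higher was 11.9%, 15.4% and 27.8% on 6AL, against 8.93%, 14.8% and 24.8%. The 27.8% was 5 of 18 genes. On 6AS the medians were 0.12, 0.12 and 0.35, against 0.02, 0.15 and 0.37 on the other A short arms.

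Among genes of the group with a mean of at least 5 FPKM, the 2 with the largest log2 difference towards 4 °C were on 6DL and 6AS, and the 2 with the largest towards 23 °C on 6BL and 6DS. Traes_6DL_134445958 reached 369.2 FPKM at 4 °C, 2166 times its 0.171 FPKM at 23 °C, and both of its transcripts were higher at 4 °C. Its 23 °C value is close to 0, so the size of this fold is uncertain. On the log2(FPKM + 1) scale the difference was 8.31. Traes_6AS_F8D06BEC8 reached 244.2 FPKM at 4 °C, 127.5 times its 1.92 FPKM at 23 °C, and 10 of its 11 transcripts were higher at 4 °C. This gene alone made up 5.30% of the 6AS sum at 4 °C and 0.046% at 23 °C. In the other direction, Traes_6BL_B51240ACF had 2.51 FPKM at 4 °C, against 164.8 FPKM at 23 °C, so that the 23 °C value was 65.6 times the 4 °C value. Traes_6DS_4A6B647AB, with 1 transcript, was listed at 0 at 4 °C and had 23.6 FPKM at 23 °C. An estimate that failed can also be listed at 0, and a fold is left out for this gene.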

How the data were processed

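Leaf RNA of 6 libraries, 3 per growth temperature, was sequenced. The authors deposited FPKM values of 442311 transcripts in 2 columns, control and cold per the file headers, taken as 23 °C and 4 °C from the labels. The submitters' processing notes name STAR 2.3.0e, Cuffdiff 2.1.1, Cufflinks 2.1.1, Trimmomatic 0.30 and CASAVA 1.8.2. Genome build, annotation and the way libraries were combined: not given in the sources used here.

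FPKM was summed over the transcripts of each of 99386 gene IDs, and the arm was read from the ID. Genes whose mean reached 1 FPKM were compared on the log2(FPKM + 1) scale, with Python 3.11.15 and pandas 2.3.3. The planned tests were not made, since they rest on single libraries. The counting steps were run on simulated data with known changes and no noise, which checks the code and not the error of the values. Named genes are the most abundant of each arm, and the group 6 genes with the 2 largest positive and 2 largest negative differences (4 °C minus 23 °C) at a mean of at least 5 FPKM. Members, lists and settings were chosen with earlier results of these data known. Alternatives were other percentiles, filters, pseudocounts, scalings and transcript choices.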

Additional observations from a re-analysis of the deposited data

How the results depend on the processing

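No paired analysis was possible because libraries have no columns of their own, so no library could be left out either. Depth is unknown. A level or share counts as moved when its printed value differs. In the order 6AL, 6AS, 6BL, 6BS, 6DL and 6DS, the relative level at the 90th percentile was 0.0849, 0.173, 0.965, 0.929, 1.89 and 1.75. It was 0.0404, 0.0658, 1.13, 0.925, 1.801 and 1.84 at the 75th percentile. At 4 °C alone it was 0.0892, 0.156, 1.03, 0.991, 1.84 and 1.57, and with the 23 °C column 0.0854, 0.164, 0.942, 0.948, 1.96 and 1.82. For genes that have 1 transcript it was 0.0935, 0.0592, 1.27, 1.23, 1.58 and 1.16, and by the highest transcript 0.0880, 0.156, 0.983, 0.973, 1.86 and 1.74. Against the arms of all subgenomes it was 0.0923, 0.186, 0.936, 0.857, 2.01 and 1.74. In each of these settings 6AL and 6AS were below 0.2, and 6DL and 6DS above 1. 6BL was also above 1 at the 75th percentile, at 4 °C alone and for genes with 1 transcript. For genes with 1 transcript 6DS was below both 6BL and 6BS. The 95th and 99th percentiles are not among these settings, and 6AS was at 0.227 and 0.475 there.

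The share of gene IDs at a mean of 1 FPKM was 11.1%, 14.1%, 45.7%, 38.3%, 51.1% and 48.4%. It was 3.82%, 5.74%, 21.4%, 17.9%, 31.6% and 29.3% at 5 FPKM, and 55.5%, 55.8%, 73.7%, 66.6%, 75.6% and 74.1% above 0. Over genes with 1 transcript it was 7.40%, 5.53%, 21.9%, 15.7%, 26.3% and 20.03%, and by the highest transcript 9.70%, 12.8%, 40.3%, 32.9%, 46.6% and 42.5%. Expressed genes numbered 83 on 6AL and 107 on 6AS at 5 FPKM. With 1 FPKM in each column or the highest transcript these counts stayed within 1.5 times.

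Counts of 2-fold higher genes left that range at 5 FPKM (15 on 6AL, 18 on 6AS, 77 on 6BL, 37 on 6BS), with a pseudocount of 0.1 (49 on 6AS) and over genes with 1 transcript (15, 7, 29, 12, 58 and 17). Counts of lower genes left it at 5 FPKM (4, 8, 20, 20, 55 and 52), with a pseudocount of 0.1 (77 on 6BL, 61 on 6BS) and over genes with 1 transcript (7, 3, 15, 15, 20 and 24). Fewer genes enter at 5 FPKM and with 1 transcript. On 6DS lower genes outnumbered higher ones in each of the 7 settings, at 5 FPKM by 52 to 51. Median changes were 0.357, 0.155, 0.152, 0.0383, 0.0539 and -0.042 with a pseudocount of 0.1. With median-of-ratios scaling they were 0.185, 0.0389, 0.0341, -0.0561, -0.0492 and -0.133, with a change of sign on 6BS and 6DL. That scaling lowers the 4 °C column for every gene, and both arms were below the median of all genes before it.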
